A study of Homo sapiens with 29 samples.

Results

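Lysine crotonylation (Kcr) on chromatin was compared between HCT116 cells with DAXX siRNA and with non-targeting siRNA, in the absence of added crotonate. The comparison used the 8 anti-Kcr libraries without crotonate, of 29 libraries in the series, and covered all 49916 deposited Kcr regions. HCT116 is an established human colorectal carcinoma line. Cells received 35 nM DAXX siRNA or 25 nM non-targeting siRNA, so the groups differ in siRNA dose as well as in target. Each group had libraries numbered 1A, 1B, 2 and 3, and 1A and 1B were averaged and counted as 1 sample, which leaves n = 3 per group. The 1 input library is labelled as DAXX siRNA and was the only measure of background. Other anti-Kcr libraries came from cells that also had 10 mM crotonate (n = 2 per siRNA, for 18 h by the series text and 48 h by the sample protocol), and RNA was read in 4 libraries for each of the 4 conditions.

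Crotonylation is an acylation of lysine in which a crotonyl group from crotonyl-CoA is attached to histones and other proteins. It is written by acetyltransferases such as p300, removed by class I deacetylases and sirtuins, and read by YEATS and double PHD finger domains, and on chromatin it is known from active promoters and enhancers. DAXX is a chaperone that, with the remodeller ATRX, deposits the histone variant H3.3, mostly in heterochromatin and at repeats, and it also resides in PML nuclear bodies.

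Several gene starts to which the results return carry their promoter within a Kcr region. They are shown for the contrast in CG content among genes whose Kcr or RNA is described below. GAS6 (chr13:113864027-113864326, minus strand), PIM1 (chr6:37169902-37170201, plus strand) and PARM1 (chr4:74932866-74933165, plus strand) are genes whose RNA changed with DAXX siRNA. FBXO17 (chr19:38975693-38975992, minus strand), ZNF160 (chr19:53103373-53103672, minus strand) and IFIT3 (chr10:89327747-89328046, plus strand) had start regions of small unadjusted p in the Kcr comparison. Each window holds 250 bases before and 50 bases after the RefSeq gene start (GRCh38.p14), is written 5′ to 3′ on the strand of the gene, and has the dinucleotide CG, which reads the same on both strands, in capitals.
GAS6: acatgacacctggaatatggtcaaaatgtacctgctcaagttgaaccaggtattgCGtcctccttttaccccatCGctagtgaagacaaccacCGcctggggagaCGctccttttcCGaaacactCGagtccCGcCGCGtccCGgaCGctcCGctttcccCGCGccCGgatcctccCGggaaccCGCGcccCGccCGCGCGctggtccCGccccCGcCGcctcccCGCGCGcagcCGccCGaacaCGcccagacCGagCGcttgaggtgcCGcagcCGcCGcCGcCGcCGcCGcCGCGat
PIM1: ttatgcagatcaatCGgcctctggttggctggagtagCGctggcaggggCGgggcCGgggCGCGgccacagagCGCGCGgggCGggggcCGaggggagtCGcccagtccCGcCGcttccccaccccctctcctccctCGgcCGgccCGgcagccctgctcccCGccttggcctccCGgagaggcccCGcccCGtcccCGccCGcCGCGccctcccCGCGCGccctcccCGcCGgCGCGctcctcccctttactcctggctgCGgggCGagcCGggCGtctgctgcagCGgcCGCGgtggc
PARM1: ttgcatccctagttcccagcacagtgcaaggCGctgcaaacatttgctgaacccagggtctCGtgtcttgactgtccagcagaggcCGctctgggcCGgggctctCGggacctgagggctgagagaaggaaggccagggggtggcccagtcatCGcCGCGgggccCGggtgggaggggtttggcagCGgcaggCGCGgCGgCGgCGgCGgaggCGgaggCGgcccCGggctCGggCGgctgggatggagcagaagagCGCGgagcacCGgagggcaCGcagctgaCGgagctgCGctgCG
FBXO17: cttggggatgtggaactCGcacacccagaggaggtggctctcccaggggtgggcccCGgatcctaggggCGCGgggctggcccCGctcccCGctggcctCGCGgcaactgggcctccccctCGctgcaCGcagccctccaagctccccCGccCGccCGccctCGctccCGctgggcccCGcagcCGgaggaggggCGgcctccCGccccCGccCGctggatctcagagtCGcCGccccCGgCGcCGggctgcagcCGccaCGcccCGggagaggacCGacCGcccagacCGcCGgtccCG
ZNF160: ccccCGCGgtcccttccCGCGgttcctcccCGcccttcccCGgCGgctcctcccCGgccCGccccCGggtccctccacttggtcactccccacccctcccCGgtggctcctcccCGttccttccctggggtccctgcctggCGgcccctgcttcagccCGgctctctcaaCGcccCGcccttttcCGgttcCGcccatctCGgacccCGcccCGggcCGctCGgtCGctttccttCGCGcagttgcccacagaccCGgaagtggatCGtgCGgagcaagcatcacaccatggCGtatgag
IFIT3: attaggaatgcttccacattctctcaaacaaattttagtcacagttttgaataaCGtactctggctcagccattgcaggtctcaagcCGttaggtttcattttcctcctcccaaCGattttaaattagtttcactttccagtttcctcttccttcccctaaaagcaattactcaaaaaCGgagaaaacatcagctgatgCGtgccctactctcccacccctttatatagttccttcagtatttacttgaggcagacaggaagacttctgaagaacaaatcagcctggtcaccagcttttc

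The promoters of GAS6, PIM1, FBXO17, ZNF160 and PARM1 hold 42, 39, 34, 30 and 28 CG, and that of IFIT3 holds 5. Of 34961 RefSeq promoters, 5.87% hold at least as many CG as that of GAS6 and 70.4% at least as many as that of IFIT3. All of these windows lie whole inside a Kcr region except that of PARM1, of which 215 of 300 bases do. Kcr regions covered 39.3% of all these promoters. They covered 15.7% of promoters with 0 to 9 CG, 46.1% of those with 10 to 19 and 61.5% of those with 20 or more.

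DAXX RNA was lower after the siRNA. DAXX (chromosome 6, 33318558 to 33323016, minus strand) measured 103, 105, 102 and 101 RPM (reads of a gene scaled to a fixed library total) in the 4 RNA libraries with non-targeting siRNA. It measured 22.9, 27.4, 23.3 and 24.9 RPM in the 4 with DAXX siRNA, which is 23.9% of the control mean. The groups did not overlap (log2 fold change -2.07, limma adjusted p = 1.23e-08). In bulk samples, fewer cells with DAXX transcript and less transcript per cell cannot be told apart, and DAXX protein was not measured. Of the 10 colon epithelium markers 8 were at or above 1 RPM in control cells, from KRT8 at 2505 RPM to CDX2 at 17.6 RPM, while CDX1 and LGALS4 lay near 0. None of 6 blood cell markers, 1 of 6 fibroblast markers, 3 of 6 neuron markers and 1 of 5 liver markers reached 1 RPM.

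The total anti-Kcr signal differed by less than its spread between samples. Region levels are given as scaled reads, which are reads in a region times 1 factor per library, not divided by region width. With non-targeting siRNA, scaled reads summed over all regions were 2.13, 1.87 and 1.79 times those of the input. With DAXX siRNA they were 2.00, 2.05 and 1.78 times the input. The ranges overlap, and the means of 1.93 ± 0.177 and 1.94 ± 0.141 (SD, n = 3) could not be told apart (two-sided exact permutation p = 1, where 0.1 is the smallest p that 3 against 3 can give). Non-targeting sample 1 was the highest of the 6, so comparisons are also given without it where that matters. The median region stood 1.96-fold above the input. Because each library has its own scaling factor, whose basis is not given in the sources used here, a uniform change of Kcr over the whole genome would not be resolved by these values.

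**Figure D1:**
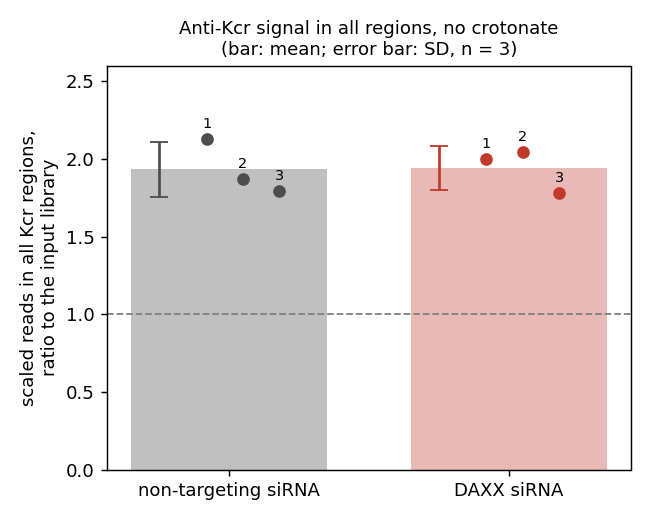
Scaled reads summed over all 49916 Kcr regions, as a ratio to the input library (dashed line at 1), in each of 3 samples with non-targeting siRNA and 3 with DAXX siRNA; bars are means and error bars SD. The samples of both groups lie between 1.78 and 2.13, and the group means of 1.93 and 1.94 nearly coincide.

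Across the genome, no Kcr region passed the test. With limma, 0 of 49916 regions were called higher (0%) and 0 lower (0%) at an adjusted p under 0.05, and the smallest adjusted p was 0.99991. At an unadjusted p under 0.05 there were 645 higher (1.29%) and 541 lower (1.08%) regions, 2.38% in all, where uniform p-values would give 5%. Limma-voom on the recovered reads also called 0, with 562 higher and 622 lower at an unadjusted p under 0.05. In 1739 regions (3.48%) every DAXX siRNA sample was above every control sample, and in 1834 (3.67%) every one was below. Sums over the regions of 14760 genes and over 2285 windows of 1 Mb, centred on the median of each sample, gave 0 calls as well. At an unadjusted p under 0.05, 143 genes were higher and 219 lower, and 19 windows were higher and 12 lower.

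The absence of calls comes with intervals that differ in width by the level of the region. The median log2 fold change was 0.0094, and the middle 95% of regions lay between -0.56 and 0.58. The 95% confidence interval lay wholly within 2-fold in either direction for 40598 regions (81.3%) and within 1.5-fold for 21031 (42.1%). In the highest quartile by level, with a median of 129 scaled reads, 100% of intervals lay within 2-fold and 93.7% within 1.5-fold. In the third, second and lowest quartiles the share within 2-fold was 99.7, 89.1 and 36.6%, and the median SE rose from 0.166 in the highest quartile to 0.393 in the lowest. Changes of 2-fold or more in scaled reads thus lay outside the intervals of nearly all regions in the third and highest quartiles. They lay inside the intervals of most regions in the lowest. Reads are not divided by width, and the median width was 600 bases in the lowest quartile and 5850 in the highest. The lowest quartile had the highest median ratio to the input, so its low read numbers went with narrow width rather than with low enrichment. Input is not subtracted, and the median regions of the third and highest quartiles stood 1.85 and 1.93 times the input. A fall to the input value there would be less than 2-fold, so these limits do not bound changes of Kcr above background. A fitted change of at least 1 log2 unit occurred in 280 regions, all below the median level, with a median of 7.62 scaled reads and a median width of 450 bases. For sums over the regions of a gene, 93.1% of intervals lay within 2-fold, and for windows 95.8%. Unlike the regions, these sums were centred on the median of each sample before the fit.

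**Figure D2:**
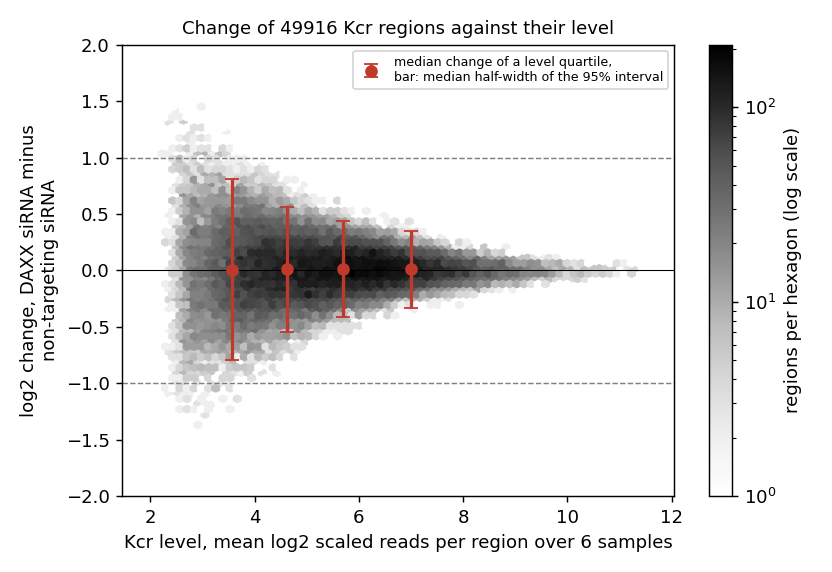
Log2 change of each of 49916 Kcr regions (DAXX siRNA minus non-targeting siRNA, shading gives the number of regions on a log scale) against its mean log2 level over 6 samples. Red points mark the median change of each level quartile with the median half-width of the 95% interval, which narrows from 0.80 in the lowest to 0.34 in the highest quartile; dashed lines mark 2-fold.

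The regions with the most reads were broad domains over clusters of genes, and their levels were close in both groups. Levels are not divided by width, so they do not rank regions by enrichment. The region at TMEM94 and CASKIN2 (chr17:75478201-75585600, 107 kb) held 3298, 2997 and 2802 scaled reads with non-targeting siRNA and 3159, 3177 and 2883 with DAXX siRNA. Its log2 fold change was 0.021 (95% interval -0.20 to 0.24). The domain at TCF7L2 (chr10:112936201-113040750), which encodes a transcription factor of Wnt signalling that is active in colon epithelium, held 3086, 2824 and 2820 against 2847, 2972 and 2646 scaled reads. The domain at TIMP2 (chr17:78893551-78985500), an inhibitor of matrix metalloproteinases, held 2776, 2517 and 2351 against 2707, 2716 and 2437. Sample ranges overlapped in all of these, and the fold changes of TCF7L2 and TIMP2 were -0.045 and 0.042. The domains at AC139530.1 (0.027) and AC100803.2 (0.038) complete the 5 of highest level. Per kb of width the 5 held 27.7 to 33.5 scaled reads, at 1.35 to 1.90 times the input, below the 1.96 of the median region.

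At DAXX itself, Kcr was measured in a region that spans the gene start and that of its neighbour ZBTB22, which encodes a zinc finger and BTB domain protein (chr6:33317551-33324150). It held 204, 155 and 165 scaled reads with non-targeting siRNA and 167, 178 and 162 with DAXX siRNA. The groups overlap, and the log2 fold change was -0.038 (SE 0.163, 95% interval -0.37 to 0.29). DAXX RNA, which the siRNA targets, changed by -2.07, but RNA and Kcr are unlike measures. Input is not subtracted from Kcr, and the control mean stood 2.62 times the input. A fall as large as that of RNA would thus take the region below the input.

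Among regions at or above the median level of 35.4 scaled reads, the 5 of smallest unadjusted p in each direction were taken although none was called (adjusted p = 0.99991 for each, limma), and 4 of the 5 higher ones are described. One lay inside SARDH, the mitochondrial sarcosine dehydrogenase (chr9:133726651-133728900). It held 40.2, 39.5 and 37.2 scaled reads with non-targeting siRNA and 53.1, 61.8 and 61.9 with DAXX siRNA. All DAXX siRNA samples were above all control samples, by a log2 fold change of 0.59 (SE 0.199, unadjusted p = 0.00534), and the control mean was 1.67 times the input. Regions inside PRKAG2, a regulatory subunit of AMP-activated kinase (0.54), and KIAA1671 (0.60) also had every DAXX siRNA sample above every control sample. Choosing regions by small p in these same samples favours groups that do not overlap, here and for the lower regions below. Among all regions, 3.48% had every DAXX siRNA sample above and 3.67% every one below.

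FBXO17, an F-box protein of ubiquitin ligases, had its start in such a region (chr19:38974651-38977050), the CG-rich promoter shown above. The region held 50.7, 47.7 and 35.9 scaled reads with non-targeting siRNA and 60.2, 75.8 and 63.2 with DAXX siRNA (log2 fold change 0.58, unadjusted p = 0.006). Its controls stood 2.35-fold above the input. FBXO17 RNA was 16.2 ± 1.98 and 16.7 ± 1.02 RPM in these groups (SD, n = 4).

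Of the lower regions, the one inside ACYP2, an acylphosphatase gene (chr2:54039901-54047100), had the highest level. It held 171, 158 and 157 scaled reads with non-targeting siRNA and 117, 135 and 105 with DAXX siRNA (log2 fold change -0.45, unadjusted p = 0.0072). The 2 groups did not overlap there, nor in 2 intergenic regions on chromosomes 22 (-0.54) and 11 (-0.57, or -0.38 without DAXX siRNA sample 2) and at the non-coding genes AC008014.1 (-0.61) and AC233701.1 (-0.51). At ACYP2 the RNA was 5.57 ± 0.388 RPM with non-targeting siRNA and 6.46 ± 0.736 with DAXX siRNA (limma adjusted p = 0.555).

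The crotonate-treated libraries, which have controls of their own, gave other values at these 10 regions. These 10 were chosen for small p without crotonate, so that their changes there are large by selection. With crotonate, the DAXX siRNA change had the same sign at 3 of the 10, and at 5 of the 6 start regions of small p named from the gene lists below. It ranged from -0.21 to 0.10 at the 5 regions that were higher without crotonate and from -0.36 to 0.48 at the 5 that were lower. Of the 645 regions higher at an unadjusted p under 0.05 without crotonate, 60% had the same sign with crotonate, with a median change of 0.09 there beside the selected 0.69. Of the 541 lower ones, 47.9% had the same sign, with medians of -0.70 and 0.017, beside 51.7% of all regions. A test of the difference between the DAXX siRNA effects with and without crotonate (the interaction) called 0 regions in limma, with 1542 (3.09%) at an unadjusted p under 0.05 and 0 called by limma-voom.

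**Figure D3:**
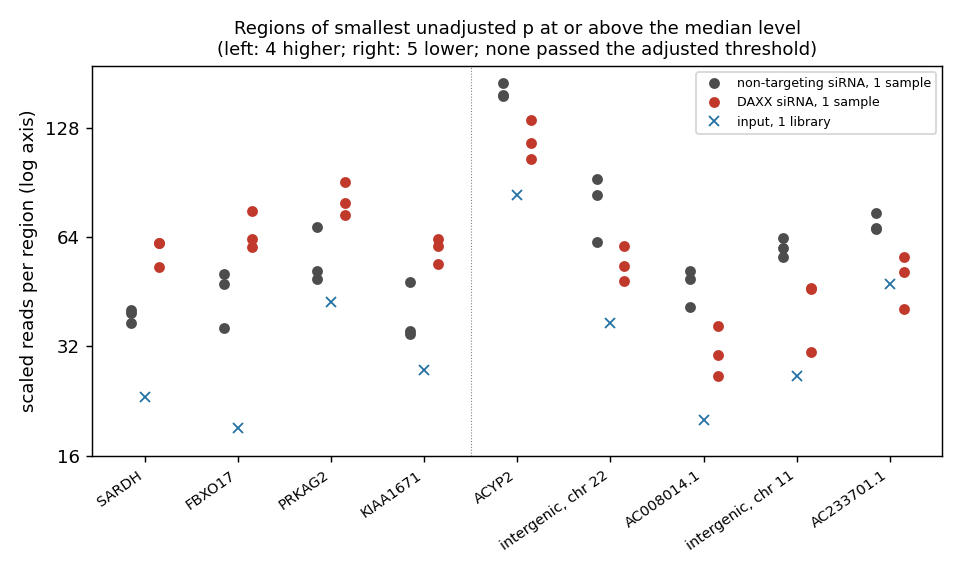
Scaled reads (log axis) of 4 regions higher and 5 lower with DAXX siRNA, from the 5 each way of smallest unadjusted p among regions at or above the median level; each dot is 1 sample and each cross the input library. The groups do not overlap in any of the regions drawn, which the choice by small p in these same samples favours. None passed the adjusted threshold.

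For genes called in RNA, Kcr at the gene start was set beside the change of the transcript. DAXX siRNA changed the RNA of 18 genes upwards (0.1% of 17973 tested) and of 55 downwards (0.306%, limma adjusted p under 0.05). Of these, 14 and 39 had a Kcr region within 2 kb of the start, and the 39 include DAXX, the siRNA target. None of the 53 regions was called, and 0 reached an unadjusted p under 0.05 in either direction. That share was 2.38% of all regions and 1.40% of regions at gene starts. The median log2 change in Kcr was 0.085 at the 14 and 0.01 at the 39, beside 0.018 at all 13743 regions at gene starts. All 53 intervals lay within 2-fold. The interval of Kcr did not contain the RNA change itself for 8 of the 14 and 33 of the 39 genes. Kcr values include background reads, so the changes in Kcr and RNA are not on the same scale.

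HMGA2, an AT-hook chromatin protein, had the largest RNA increase among those with a start region, from 171 ± 27.5 to 298 ± 17.8 RPM (log2 fold change 0.82, SD, n = 4). Its start region (chr12:65822401-65829150) held 217, 264 and 182 scaled reads with non-targeting siRNA and 222, 261 and 184 with DAXX siRNA. The 3 samples of each group cover the same range, and the Kcr change was 0.01 (95% interval -0.36 to 0.38). GAS6, a secreted ligand of AXL and related kinases, had 110, 89.9 and 87.7 against 97.5, 108 and 105 scaled reads, a change of 0.12, beside 0.72 in RNA. The groups overlap there too.

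The other genes with raised RNA gave Kcr changes of either sign. The clock repressor gene BHLHE41 had 0.37, the neuropilin gene NRP1 0.21, the carboxypeptidase gene CPA4 0.086, the adaptor gene AP3S1 0.076 and the zinc finger homeobox gene ZHX1 -0.049. In FDX1, which encodes the mitochondrial ferredoxin 1 and was named after its values were seen, every DAXX siRNA sample was above every control sample. Its start region held 51.6, 46.3 and 35.9 scaled reads with non-targeting siRNA and 61.1, 61.8 and 52.7 with DAXX siRNA (0.41, unadjusted p = 0.0594). It was the 1 such gene of the 14, beside 3.48% of all regions and 347 of the 13743 regions at gene starts.

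Among genes with lowered RNA, PARM1, a mucin-like membrane protein, fell to 8.22 ± 0.605 from 19.02 ± 1.46 RPM (-1.21). Its start region (chr4:74932951-74934150), which covers most of the promoter shown above, held 23.7, 25.9 and 21.3 scaled reads with non-targeting siRNA and 22.7, 40.7 and 31.6 with DAXX siRNA. The samples overlap, and the Kcr change of 0.39 (95% interval -0.13 to 0.91) has the opposite sign to that of RNA. PIM1, a serine/threonine kinase, fell in RNA by 0.73 log2 units. Its start region (chr6:37168801-37172250) held 95.5, 85.8 and 89.0 against 92.8, 96.9 and 77.7 scaled reads, a change of -0.021 (95% interval -0.39 to 0.34). No member of either group of samples stood apart.

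The remaining named genes with lowered RNA spanned Kcr changes from -0.14 to 0.28. These were the torsin gene TOR1B (-0.14), the dendritic cell lysosomal gene LAMP3 (-0.048), the ferric reductase gene CYBRD1 (0.067), the cell adhesion gene IGSF9 (0.028) and PRELID2 (0.28). UHRF1, which recruits the maintenance DNA methyltransferase, and DNMT3B, a de novo DNA methyltransferase, were named after their values were seen. UHRF1 RNA fell by 0.55 log2 units with a Kcr change of 0.01, and DNMT3B RNA fell by 0.49 with a Kcr change of 0.22. The sign of the Kcr change was that of the RNA change in 11 of the 14 genes raised and 16 of the 39 lowered in RNA. The median Kcr change was above 0 in both sets (0.085 and 0.01) and at all regions at gene starts (0.018). A change above 0 counts as the same sign for raised genes and as the opposite sign for lowered ones. BEST1 and FTH1, both raised in RNA, are neighbours on chromosome 11 whose gene bodies overlap on opposite strands. Which strand was counted is not given in the sources used here, so reads of the overlap may count for either.

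**Figure D4:**
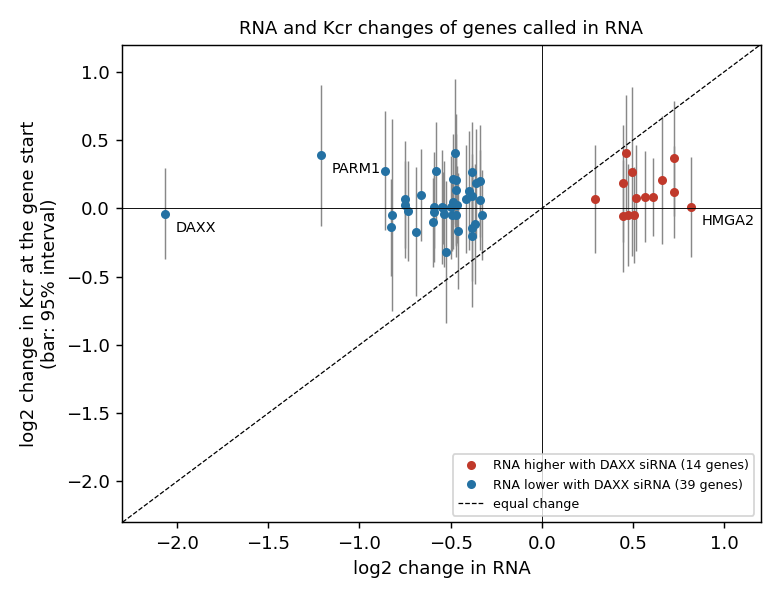
Log2 change in Kcr at the gene start (vertical axis, bars are 95% intervals) against log2 change in RNA (horizontal axis) for the 14 genes raised and 39 lowered in RNA by DAXX siRNA that have a Kcr region within 2 kb of the start. Kcr changes lie between -0.32 and 0.41, with HMGA2 at 0.82 in RNA and 0.01 in Kcr, FDX1 at 0.46 and 0.41, PARM1 at -1.21 and 0.39 and DAXX at -2.07 and -0.038.

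Genes that make, remove and read the mark showed no called change of Kcr at their own starts. Of the writers, 8 of 9 had a start region, 0 passed any threshold, and the median log2 fold change was -0.035. KAT7, the catalytic subunit of the HBO1 complex, held 537, 437 and 514 scaled reads with non-targeting siRNA and 494, 477 and 440 with DAXX siRNA (-0.073). KAT2A, the acetyltransferase GCN5, had the smallest p of that list with a change of -0.11. Of the erasers, 4 of 7 had a start region (median 0.033), with the deacylase genes SIRT2 at -0.052 and SIRT1 at 0.19. The reader list had 6 of 8 (median 0.015). ZMYND8 had both the highest level and the smallest p of that list, with 251, 249 and 190 against 242, 324 and 250 scaled reads (0.24, limma unadjusted p = 0.136). It is a bromodomain gene, and bromodomains are not among the reader domains of crotonylation named above. Enzymes of crotonyl-CoA had 4 of 11 (median 0.095), among them the acyl-CoA synthetase gene ACSS2 (0.021) and the dehydrogenase gene ACADSB (0.17).

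The partners of DAXX likewise gave no call. Of 13 genes of H3.3 and its chaperones, 8 had a start region, with a median of 0.012. H3F3B, one of the genes that encode H3.3, held 436, 331 and 310 scaled reads with non-targeting siRNA and 397, 424 and 352 with DAXX siRNA (0.14). ASF1B, a chaperone of H3 and H4, had 56.1, 65.4 and 46.5 against 69.2, 80.0 and 63.2 scaled reads (0.35, unadjusted p = 0.0835). Only the control sample 2 lay within the DAXX siRNA range there. Of 22 heterochromatin and PML body partners, 18 had a start region (median 0.011), with the H3K9 methyltransferase genes EHMT1 at 0.082 and SUV39H1 at 0.44, the latter from only 16.3 scaled reads in the controls.

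Gene families known as sites of H3.3 or heterochromatin had 0 called start regions. Of 32 HOX genes, 25 shared 20 start regions, with 0 at an unadjusted p under 0.05 and a median of 0.027. The broad region at HOXB3 held 2148, 1892 and 1866 scaled reads with non-targeting siRNA and 2059, 2135 and 1768 with DAXX siRNA (0.012), while HOXC8 had the smallest p of the family (-0.35, unadjusted p = 0.0855). Imprinted genes had 10 of 23 with a start region and a median of 0.057, with H19 at -0.038 and CDKN1C at 0.16. Clustered protocadherins had start regions for 2 of 53 genes, PCDHAC2 (0.081) and PCDHGA10 (0.40), and thus a median of 0.24 over 2 regions.

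Zinc finger genes of chromosome 19, whose 3′ ends are known sites of H3K9 trimethylation with ATRX, had 74 start regions for 77 of 249 genes. At an unadjusted p under 0.05 there were 3 higher and 0 lower, and the median was 0.046. In 6 of the 74 every DAXX siRNA sample was above every control sample and in 0 every one was below, beside 3.48 and 3.67% of all regions. Among the 13743 regions at gene starts, these were 347 and 310. ZNF160 (chr19:53101951-53104050), whose promoter is shown above, held 35.3, 40.9 and 50.5 scaled reads with non-targeting siRNA and 64.6, 78.6 and 51.4 with DAXX siRNA. DAXX siRNA sample 3 was just above the highest control (0.61, SE 0.212, unadjusted p = 0.0068). Its RNA was 14.0 ± 1.38 and 13.4 ± 2.01 RPM. The highest level in the list was at ZFP36, an RNA-binding zinc finger gene of another family (0.090).

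Replication-dependent histone genes had 37 start regions for 53 of 73 genes, with a median of 0.081 and 0 at an unadjusted p under 0.05. HIST1H3C, an H3 gene, had the smallest p of the list (0.43, unadjusted p = 0.151), and the highest level lay at H1F0, a linker histone gene that is not replication-dependent (-0.025). Ribosomal protein genes had 72 start regions for 72 of 85 genes and a median of 0.093, the highest of the lists with more than 20 regions. In 4 of them every DAXX siRNA sample was above every control sample and in 0 below, beside 3.48 and 3.67% of all regions. Among the 13743 regions at gene starts, these were 347 and 310. Of the ribosomal start regions, 0 reached an unadjusted p under 0.05. RPL38 held 924, 854 and 853 against 896, 948 and 906 scaled reads (0.064), and RPS9 had the smallest p (0.38, unadjusted p = 0.0676).

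At an unadjusted p under 0.05 there were 1 of 15 start regions of G2 and mitosis genes and 0 of those of DNA replication, p53 and NRF2 target genes. That share was 2.38% of all regions and 1.40% of regions at gene starts. DNA replication genes had 26 start regions and a median of 0.016, with the licensing factor gene CDT1 at -0.052 and the sliding clamp gene PCNA at 0.34. G2 and mitosis genes had 15 and a median of 0.098, with the survivin gene BIRC5 at 0.033. The mitotic kinase gene AURKA held 58.7, 31.3 and 49.2 scaled reads with non-targeting siRNA and 66.7, 63.2 and 56.6 with DAXX siRNA (0.47, unadjusted p = 0.0414). Control sample 1 lay within the DAXX siRNA range, and without control sample 2 the change was 0.21. Targets of p53 had 17 start regions, 0 at an unadjusted p under 0.05 and a median of 0.058, with GDF15, a stress-induced cytokine gene, at 0.0052 and TP53I3 at 0.25. NRF2 targets had 14 and a median of 0.082, with the heme oxygenase gene HMOX1 at 0.25 and OSGIN1 at 0.089.

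In the NF-kB and chemokine list 1 of 11 start regions was lower at an unadjusted p under 0.05. This compares with 1.08% of all regions and 73 of the 13743 at gene starts. The lower region was that of CXCL8, the neutrophil chemokine interleukin 8 (chr4:73739401-73740150). It held 18.2, 17.7 and 17.3 scaled reads with non-targeting siRNA and 10.5, 11.2 and 5.27 with DAXX siRNA. All 3 DAXX siRNA samples were below all controls (log2 fold change -1.05, SE 0.351, limma unadjusted p = 0.005, adjusted p = 0.99991). DAXX siRNA samples 1 and 2 stood above the input value of 6.35 and sample 3 below it. CXCL8 RNA was 10.6 ± 2.95 and 11.9 ± 1.78 RPM, and with crotonate the Kcr change was -0.092. The region with the most reads in the list, at the NF-kB subunit gene NFKB2, changed by -0.053. It is 52.05 kb wide, also lies at the starts of FBXL15, PSD and CUEDC2, and stood 2.03 times the input, beside 2.79 at CXCL8.

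Interferon-stimulated genes had 1 of 13 start regions higher at an unadjusted p under 0.05. This compares with 1.29% of all regions and 120 of the 13743 at gene starts. IFIT3, an antiviral tetratricopeptide protein, has the CG-poor promoter shown above (region chr10:89326951-89328450, which also lies over LIPA). It held 26.7, 32.7 and 11.96 scaled reads with non-targeting siRNA and 39.4, 39.3 and 46.1 with DAXX siRNA. The groups did not overlap, with control sample 3 below the input value of 18.0 (0.92, SE 0.294, unadjusted p = 0.0035), and without that sample the change was 0.49. IFIT3 RNA was 1.77 ± 0.167 and 1.91 ± 0.338 RPM, and the Kcr change with crotonate was 0.55. ISG15, the ubiquitin-like modifier of this response, changed by -0.037.

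Integrated stress response genes had 16 start regions and a median of 0.059, with 1 lower and 0 higher at an unadjusted p under 0.05. Lower regions at that p were 1.08% of all regions and 73 of the 13743 at gene starts. In 1 of the 16 every DAXX siRNA sample was below every control sample and in 1 above, beside 3.67 and 3.48% of all regions. VLDLR, a lipoprotein receptor, held 21.3, 27.2 and 19.9 scaled reads with non-targeting siRNA and 15.99, 9.83 and 17.1 with DAXX siRNA (-0.70, unadjusted p = 0.0231), without overlap, and -0.45 without DAXX siRNA sample 2. VLDLR RNA lay near 0, at 0.043 RPM with non-targeting siRNA and 0.024 RPM with DAXX siRNA, too low for the RNA test. SHMT2, the mitochondrial serine hydroxymethyltransferase gene, changed by -0.017. Wnt targets and intestinal stem cell genes had 11 start regions and a median of -0.042, with 1 of the 11 lower at an unadjusted p under 0.05. ASCL2, the transcription factor of intestinal stem cells, held 65.3, 70.8 and 73.1 against 69.5, 46.3 and 39.5 scaled reads (-0.47, limma unadjusted p = 0.0253). ASCL2 RNA also lay near 0 in these cells, at 0.023 RPM with non-targeting siRNA and 0.024 RPM with DAXX siRNA. DAXX siRNA sample 1 lay within the control range, and the change was -0.30 without DAXX siRNA sample 3. NOTUM, a Wnt-inactivating enzyme gene, changed by -0.043.

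Relative levels of region classes overlapped between the groups in all but 1 class. Each class was measured as its mean log2 level minus the mean of all regions of the sample. Regions at starts of genes with RNA stood at 1.00, 0.96 and 0.93 with non-targeting siRNA and at 0.98, 1.06 and 0.91 with DAXX siRNA. Regions at starts of genes without RNA stood at 0.35, 0.34 and 0.37 against 0.34, 0.30 and 0.35. Regions inside genes were near -0.26 in both groups (-0.26 ± 0.011 and -0.26 ± 0.014, SD, n = 3), and intergenic ones at -0.45 ± 0.015 and -0.46 ± 0.033. The groups overlapped in all of these, with exact permutation p of 0.7, 0.5, 0.9 and 0.7 (two-sided, n = 3 per group). The input, at 0.90 and 0.41 for the starts with and without RNA, had the same order of classes, and regions at starts of genes with RNA were wider (median 3000 bases) than those inside genes (1650).

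**Figure D5:**
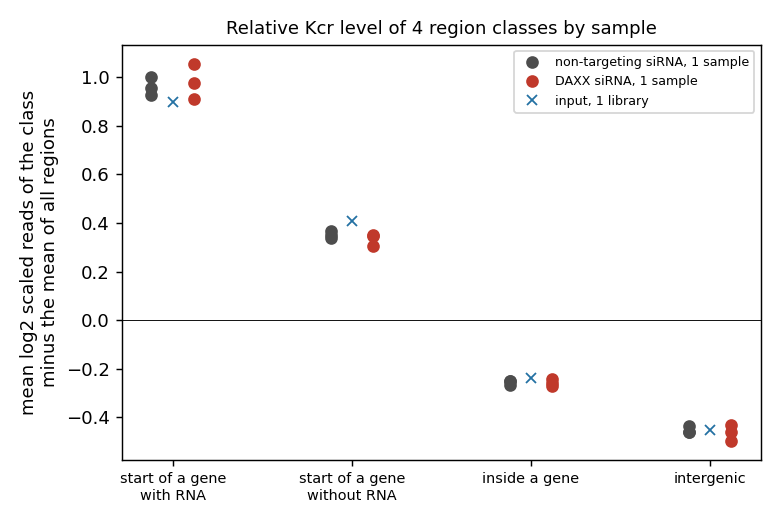
Mean log2 level of 4 region classes minus the mean of all regions, in each of 3 samples with non-targeting siRNA and 3 with DAXX siRNA (dots) and in the input (crosses). Dots of both groups overlap in every class, from 0.91 to 1.06 at starts of genes with RNA down to about -0.46 between genes.

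Starts were also divided by the RNA level of the gene. From the lowest to the highest quartile, the relative level with non-targeting siRNA was 0.69, 0.79, 0.98 and 1.39, and with DAXX siRNA 0.69, 0.81, 1.01 and 1.42. The order of the quartiles was the same in both groups and in the input, and the differences of -0.0011 to 0.031 were smaller than the SD of the samples. Of 42 classes by location, width, ratio to input, chromosome, chromosome end and RNA level, 0 had an exact p below 0.1, the smallest that the design allows. Chromosome 9 was the 1 class without overlap, at 0.081, 0.087 and 0.075 with non-targeting siRNA and 0.065, 0.057 and 0.067 with DAXX siRNA (difference -0.017, exact permutation p = 0.1, adjusted p = 0.969 over the 42). Regions within 2 Mb of the outermost region of a chromosome, which lie towards telomeres, differed by -0.0025 (exact permutation p = 0.9). Non-targeting sample 1 stood apart from the other controls on several chromosomes. On chromosome 21 it stood at -0.28 and the other controls at -0.056 and -0.074, while the DAXX siRNA samples lay between -0.14 and -0.086. It was also the lowest control on chromosomes 13, 18, 20 and 22, among others, with 0.205 against 0.320 and 0.316 on chromosome 22. On chromosomes 1 and 2 it was the highest control, with 0.056 against 0.0047 and 0.0079 on chromosome 1.

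Leaving out non-targeting sample 1 moved the balance of small p-values most. Without it, 1667 regions were higher and 373 lower at an unadjusted p under 0.05, and the median log2 fold change was 0.075, but 0 regions were called and the smallest adjusted p was 0.128. Without DAXX siRNA sample 2 the counts were 350 higher and 577 lower.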

How the data were processed

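Anti-Kcr ChIP-seq of HCT116 cells was deposited as log2 values in 49916 regions. Per the submitters' processing notes, the ChIP data went through Trim Galore 0.6.5, cutadapt 2.3, Bowtie2 (GRCh38) and MACS, and the RNA data through Trim Galore 0.6.2 and HISAT2 2.2.1. How regions of single libraries were combined is not given in the sources used here. The deposited ChIP values equal the log2 of reads times 1 factor per library, 0 reads being entered as 0.9 read, without subtraction of the input or division by width. The deposited RNA values are log2 RPM. Undoing the factors gave whole reads for 100% of ChIP values (tolerance 0.01 read), with 2455043 to 3639130 reads in regions in each of the 8 anti-Kcr libraries without crotonate and 1719036 in the input.

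Reads of 1A and 1B differed by little more than sampling (chi-squared over degrees of freedom 1.007, p = 0.132, for non-targeting and 1.012, p = 0.0251, for DAXX siRNA), while other pairs without crotonate gave 1.035 to 1.273. They were averaged on the log2 scale. Limma 3.58.1 (R 4.3.3) with a variance trend was fitted to the 10 Kcr samples of all 4 groups, and p-values were adjusted by Benjamini-Hochberg over all regions. RNA was fitted the same way for 17973 genes with at least 0.25 RPM in at least 4 libraries. Classes and totals were compared by exact permutation. The region fit was also run on simulated reads. These had no shift in level between samples of a group, unlike the real samples, so that run does not measure how the fit performs here.

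Named regions are the 5 of smallest p each way at or above the median level where none was called, the DAXX start, the 5 of highest level, for each of 20 gene lists the start region of highest level and of smallest p, and start regions of the 8 genes of largest RNA change each way. A start region lies within 2 kb of a gene start in the deposited gene table, and coordinates are those of the files. Members, lists and tests were chosen with earlier results of these data known. The labels do not say whether replicates are separate cultures, so p-values measure the spread between these samples only. Some items that the naming rule takes are not reported here. Alternatives are given at the end.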

Additional observations from a re-analysis of the deposited data

Results flagged for a closer look

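In RNA, where groups have 4 libraries, 4 of 32 groups tested had a library farther from the others than a Dixon test at 95% allows, and chance alone flags about 1 in 20 groups. GAS6 had 1 such library with non-targeting siRNA at 97.2 RPM and 1 with DAXX siRNA at 148 RPM. NRP1 had a library at 11.6 RPM and PARM1 a library at 16.8 RPM, both with non-targeting siRNA. The Kcr groups of 3 samples were not tested in this way.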

How the results depend on the processing

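Region calls stayed at 0 in each direction in all 25 alternative settings run. Among them, adjusted p thresholds of 0.1 and 0.01 could give no call, since the smallest limma adjusted p was 0.99991. Other settings were centring, quantile scaling, a pseudocount of 10, limma-voom, only regions 2-fold over the input, and sums over genes and 1 Mb windows. These sums and the centred block were chosen after seeing the data. Leaving out 1 sample, or 1 replicate number in both groups, also gave 0. The replicate block gave 0 calls, with 929 higher and 706 lower at an unadjusted p under 0.05 and a smallest adjusted p of 0.705. Same-numbered samples had deviations correlated at 0.026, 0.020 and 0.050, and differently numbered ones at -0.056 to 0.035. The mean of each sample was removed first, so these values do not decide whether the numbers pair the samples. Sample 3 had the lowest total signal in both groups without crotonate. The interaction stayed at 0 calls with the replicate block and with limma-voom.

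The class differences by location and the median Kcr change at RNA-called starts moved by less than 1 SD of the samples. For genes raised in RNA that median ranged from 0.047 to 0.17, and for those lowered from -0.047 to 0.093, so the latter has no firm sign. Medians of 16 of the 20 gene lists changed sign in at least 1 setting. The median of integrated stress response genes moved by more than 1 SD in 6 of 9 settings (-0.026 to 0.16) and that of interferon-stimulated genes in 2 of 9 (-0.065 to 0.16), and that of ribosomal protein genes ranged from 0.015 to 0.18. The difference of chromosome 8 moved in 2 of 9 settings, and those of some other chromosomes and of classes by width or ratio to input in 1. Of the 54 named regions at an unadjusted p of 0.05 or above, 20 had the same sign in every setting. Precision is limited by 3 samples per group and by low read numbers in narrow regions, where 2-fold changes lie within the intervals of most.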
